A study of Mus musculus with 28 samples.

Results

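Aminoacyl-tRNA synthetases join each amino acid to the tRNAs that carry it to the ribosome. The cytosol and the mitochondrion use separate sets of enzymes, and nearly all mitochondrial enzymes are encoded in the nucleus by genes whose names end in 2. Gars and Kars, for glycine and lysine, are known to serve both compartments from a single gene, and Eprs charges both glutamate and proline. Several cytosolic enzymes sit in the multisynthetase complex on the scaffold proteins Aimp1, Aimp2 and Eef1e1, and many cytosolic synthetase genes are known targets of ATF4, the transcription factor of the integrated stress response. The 36 genes described here were taken by name, 20 cytosolic and 16 mitochondrial, out of 55291 genes in the tables. All 36 were found, and all 36 passed the filter on low values in each of the 3 experiments.

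The data are 28 RNA-seq libraries from mouse cells, in 8 groups. LLC is a lung carcinoma line, labelled wild type in all groups, and BAY-876 inhibits GLUT1, the glucose transporter that Slc2a1 encodes. For 36 h, LLC cells were kept in vehicle or in 200 nM BAY-876, with 3 libraries each. In the 32 h experiment, cells got 200 nM BAY-876 or no drug for 24 h and then 20 ng/ml of the inflammatory cytokine TNF or none for 32 h, which made 4 groups of 3 libraries: control, BAY-876, TNF, and both agents. Whether the inhibitor stayed on during those 32 h was not given in the sources used here. On day 16, 5 libraries came from tumour cells and 5 from OT1 cells, T cells with a transgenic receptor for an ovalbumin peptide. Both were sorted from tumours that LLC-OVA-NGFR cells had formed in Rag1 ko mice, hosts without T or B cells of their own but with myeloid cells, after activated OT1 cells were transferred on day 9. Nothing in the labels ties the replicates to separate cultures or mice, so p-values measure only the spread between these libraries, which may be technical.

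The treatments and the sort were checked with marker genes. Nfkbia, an early NF-kappaB target, ran from 304 to 343 TPM (transcript abundance scaled by length and to a fixed total) in the 6 TNF-treated libraries and from 38.8 to 49.8 TPM in the other 6. Txnip, read as the marker for BAY-876, ran from 1267 to 1370 normalized counts with vehicle and from 13.3 to 28.3 with the drug at 36 h. At 32 h it ran from 0.223 to 0.653 TPM with BAY-876, with or without TNF. It ran from 43 to 44.2 TPM in control and from 8.58 to 16.2 TPM with TNF alone, so TNF also lowered it. Summed T cell markers ran from 2880 to 4431 TPM in OT1 libraries and from 8.73 to 13.1 TPM in tumour libraries. In culture they summed to 154 to 192 normalized counts at 36 h and 2.43 to 7.63 TPM at 32 h, with Cd3e listed at 0 in all groups. The 16 myeloid markers summed to 1242, 6104, 2902, 3922 and 16778 TPM in OT1 replicates 1 to 5, against 41.9 to 153 TPM in tumour libraries, so markers of other cells were present in the OT1 libraries. Endothelial markers (42.3 to 60 TPM against 0.919 to 7.03) were also higher there, and fibroblast markers lower (27 to 84.1 TPM against 328 to 835). Of the 4 endothelial markers 1 passed the filter on low values on day 16. The fibroblast markers also summed to 840 to 863 TPM in control LLC cells in culture, so neither sum identifies a cell type. Erythroid markers summed to 65 to 2781 TPM in OT1 libraries and to 10.1 to 899 TPM in tumour libraries. Group values are given as mean ± SD (n = 3 in culture, n = 5 on day 16). A gene was called where limma's adjusted p over all genes of the table was under 0.05, and log2 differences are of log2(value + 1).

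The promoters of the synthetases were read first for the letters TGATGNAA, an element known to bind ATF4 with C/EBP proteins, since the cytosolic genes that rose under BAY-876 include known ATF4 targets. RefSeq promoters on GRCm38.p6 (250 bases before to 50 after the start) were held for 27 of the 36 genes. The letters occurred on either strand in 5 of 13 cytosolic promoters (38.5%), in 0 of 15 mitochondrial promoters (14 genes, Aars2 with a pair), and in 1304 of 32851 promoters of the table (3.97%). The stretches that hold them are shown for comparison, read along the gene's strand with the match in capitals.
Aars, chr8:111033700-111033767, plus strand: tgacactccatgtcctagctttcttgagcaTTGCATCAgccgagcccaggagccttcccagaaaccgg
Aars, chr8:111033843-111033866, plus strand: gggtcactTTTCATCAgagcgctc
Gars, chr6:55037941-55038000, plus strand: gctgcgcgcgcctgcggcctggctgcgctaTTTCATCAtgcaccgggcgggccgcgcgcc
Iars, chr13:49682129-49682152, plus strand: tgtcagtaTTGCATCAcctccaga
Tars, chr15:11399659-11399703, minus strand: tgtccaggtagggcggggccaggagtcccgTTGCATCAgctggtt
Yars, chr4:129189898-129189921, plus strand: agctcagcTGATGCAAcccgacgg
From the start, the match began at −112 and 9 in Aars, −30 in Gars, 7 in Iars, −15 in Tars and 3 in Yars, and it lay in the reverse orientation in all but Yars. Sars, the cytosolic gene that rose most under BAY-876, had 0 matches in this window. Mars1, called higher under BAY-876 alone at 32 h but not at 36 h, also had 0. Iars, which holds a match, was not called under BAY-876 alone at 36 h or 32 h. A match describes letters in this window only. The promoters of Cars, Hars, Lars, Nars, Rars, Vars, Wars, Hars2 and Pars2 were not analysed here.

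In untreated LLC cells the cytosolic synthetases were on the whole more abundant than the mitochondrial ones. TPM is scaled by transcript length, so levels can be set between genes. Sars, for serine, was the most abundant, at 512, 492 and 516 TPM in the control libraries of the 32 h experiment. Vars followed at 350.5 ± 12.4 TPM, Qars at 297 ± 8.42, Gars at 284 ± 1.11, Nars at 255 ± 11 and Kars at 241 ± 5.78 TPM. The ranges of Qars and Gars came close without overlap, at 287 to 302 and 283 to 285 TPM, and so did those of Nars and Kars, at 248 to 268 and 236 to 247 TPM. Hars, at 50.5 ± 0.383 TPM, and Wars, at 49.9 ± 3.3 TPM, were the lowest cytosolic enzymes and overlapped. Iars2 led the mitochondrial set at 64.1 ± 1.8 TPM, above the means of Farsb, Tars, Hars and Wars, and Nars2 was lowest at 4.18 ± 0.856 TPM.

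The 20 cytosolic enzymes summed to 3337 ± 26.7 TPM and the 16 mitochondrial ones to 346 ± 4.57 TPM in control cells, a ratio of 9.63 ± 0.0811. Pairs for the same amino acid were far from equal. Sars stood 78.3 ± 2.94 times above Sars2 and Nars 63 ± 14.2 times above Nars2, while Tars stood 1.53 ± 0.241 times above Tars2 and Iars 1.78 ± 0.145 times above Iars2.

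**Figure D1:**
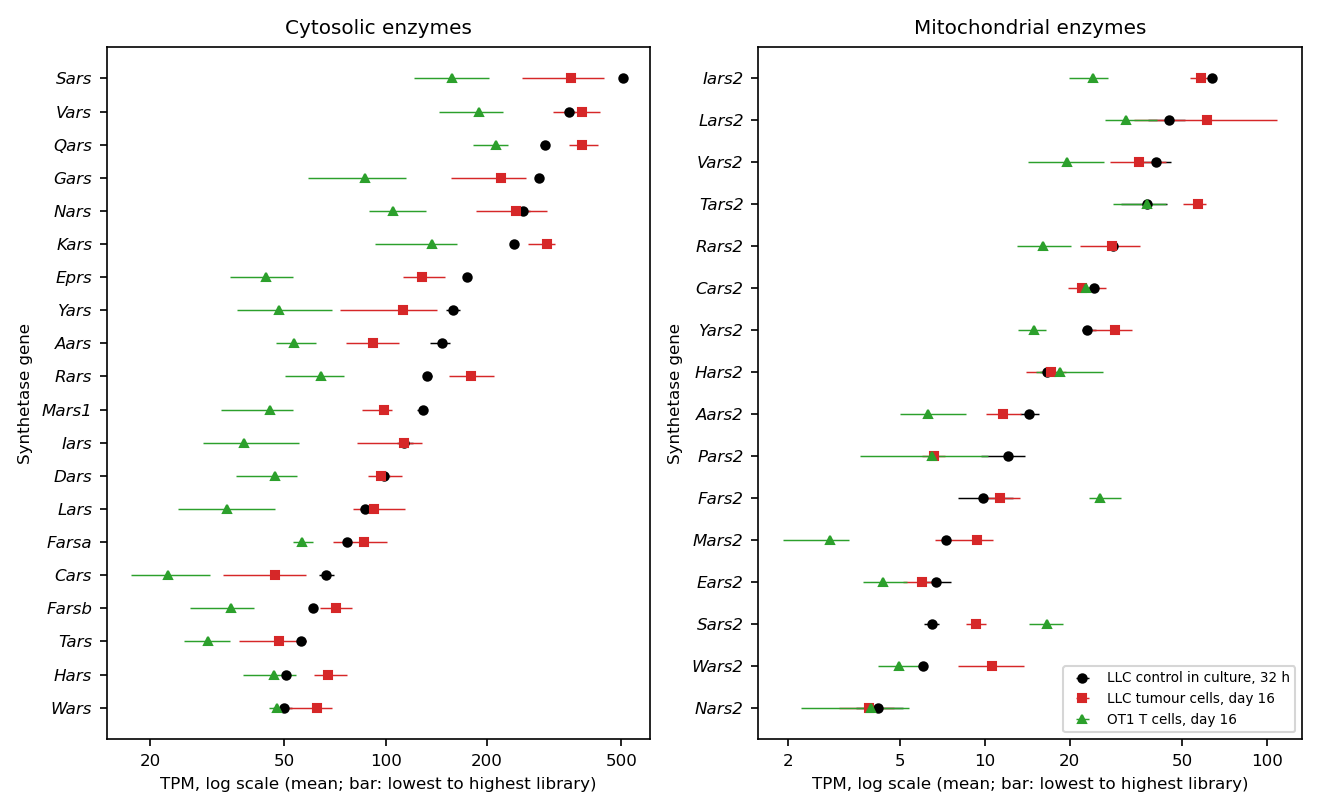
Mean TPM of each synthetase on a log scale in LLC control cells in culture (32 h table) and in tumour cells and OT1 cells of day 16 (a table scaled separately), with bars from the lowest to the highest library. Sars tops the cytosolic panel at 506.6 TPM in control cells and Iars2 the mitochondrial panel at 64.1 TPM. OT1 means lie left of tumour means for every cytosolic enzyme, while the bars of Wars overlap.

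BAY-876 raised a subset of cytosolic synthetases at 36 h. Of 20 cytosolic genes, 4 rose and 2 fell, and of 16 mitochondrial genes 1 rose and 2 fell, where 7.34% of 12937 genes rose and 7.1% fell (14.4% in either direction). Sars and Aars, for serine and alanine, rose most among the cytosolic genes, followed by Yars and Gars, for tyrosine and glycine. The median log2 difference was 0.04 for cytosolic and −0.04 for mitochondrial genes against −0.00 for all genes. In 9 of 20 cytosolic genes the groups did not overlap, 5 with BAY-876 above vehicle and 4 below, where 36.7% of all genes tested did not overlap (18.3% above and 18.4% below), so this count is near that of all genes.

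Sars stood at 4356, 4458 and 4202 normalized counts with vehicle and at 6092, 5574 and 6169 with BAY-876. All treated libraries lay above all vehicle libraries, by 1.37 times on average (log2 0.45, SE 0.05, limma adjusted p = 0.00171). Aars went from 4033, 3837 and 3818 to 5082, 4918 and 4846 normalized counts, again without overlap (log2 0.35, SE 0.05, limma adjusted p = 0.00325). Gars went from 5278, 5347 and 5226 to 6354, 6325 and 6146 normalized counts (log2 0.25, SE 0.04, limma adjusted p = 0.00768). These 3 calls held in all 12 alternatives. Yars, at 1662, 1754 and 1680 normalized counts with vehicle and 2144, 1914 and 2044 with the drug, did not overlap either (log2 0.26, limma adjusted p = 0.0267).

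Farsb, a subunit of the phenylalanine enzyme, fell by 0.23 log2 (SE 0.06, limma adjusted p = 0.0326) from 1643, 1755 and 1694 to 1474, 1466 and 1393 normalized counts. Kars fell by 0.18 log2 (limma adjusted p = 0.0459), from 5441 ± 40.6 to 4805 ± 257 normalized counts. Farsa, the other phenylalanine subunit, stood at 1436 ± 29.8 and 1337 ± 49.8 normalized counts and was not called. Among mitochondrial genes Mars2, for methionine, fell from 1884, 1993 and 1972 to 1305, 1512 and 1553 normalized counts, the groups well apart (log2 −0.42, SE 0.08, limma adjusted p = 0.0088), and this call held in all 12 alternatives. Aars2 rose from 282 ± 1.76 to 383 ± 10.2 normalized counts (log2 0.44, limma adjusted p = 0.0133) and Vars2 fell from 956 ± 172 to 666 ± 25.5 (log2 −0.51, limma adjusted p = 0.024). Leaving out single libraries ended some of these calls. The adjusted p reached 0.0973 for Yars (without any vehicle replicate or BAY-876 replicate 3), 0.127 for Farsb and 0.144 for Kars (any library but BAY-876 replicate 1), 0.0558 for Aars2 (vehicle replicate 2 or 3) and 0.0703 for Vars2 (vehicle replicate 1 or 3, or BAY-876 replicate 3).

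At 32 h the inhibitor alone raised 8 cytosolic genes and lowered 3, and raised 3 mitochondrial genes and lowered 0, where 11.5% of 12780 genes rose and 25.8% fell (37.4% in either direction). Sars again led the cytosolic genes, followed by Wars, Aars, Rars, Tars, Yars, Cars and Mars1. The genes that fell were Qars, Farsb and Kars. The medians were 0.09 log2 for both sets against −0.09 for all genes. Over all genes 30.8% of the calls were higher, and 49.3% after quantile normalization or 52.7% after median-ratio scaling, while no called synthetase changed sign. After median-ratio scaling 14 cytosolic genes passed as higher, and so did 2354 of 12768 genes, against 1473 of 12780 without it.

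Sars went from 512, 492 and 516 TPM in control to 728, 735 and 688 TPM with BAY-876, with no overlap (log2 0.50, SE 0.06, limma adjusted p = 6.59e-05). Wars, which at 36 h stood at 1423 ± 58.2 and 1389 ± 55.5 normalized counts and was not called, went here from 50.7, 52.7 and 46.3 to 65.6, 63.1 and 64.6 TPM (log2 0.36, SE 0.06, limma adjusted p = 0.000922). Aars went from 156, 151 and 136 to 213, 178 and 168 TPM (log2 0.33, SE 0.08, limma adjusted p = 0.00708). In each of these genes the treated libraries lay above the controls. Rars, for arginine, rose from 133 ± 3.47 to 162 ± 1.64 TPM (log2 0.28, limma adjusted p = 0.00117). Gars, called at 36 h, stood at 284 ± 1.11 and 305 ± 1.19 TPM, and its groups did not overlap, but it missed the threshold (log2 0.10, SE 0.04, limma adjusted p = 0.0533).

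Qars, the glutamine enzyme, showed the opposite pattern, with 287, 302 and 301 TPM in control and 193, 202 and 231 TPM under BAY-876 (log2 −0.51, SE 0.06, limma adjusted p = 5.8e-05). At 36 h it had stood at 2465 ± 243 and 2479 ± 239 normalized counts, the groups overlapping. Farsb went from 60.6, 59.9 and 62.5 to 42, 42 and 44.6 TPM, far apart (log2 −0.50, SE 0.07, limma adjusted p = 0.000172), while Farsa stayed within a narrow range, at 75.4 to 77.9 and 76.5 to 77.5 TPM, and was not called. Kars went from 247, 239 and 236 to 206, 207 and 213 TPM (log2 −0.21, SE 0.03, limma adjusted p = 0.000262).

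The mitochondrial genes that rose were Sars2, Wars2 and Yars2. Sars2 went from 6.45, 6.11 and 6.87 to 10.5, 10.9 and 11.2 TPM, well above the controls (log2 0.66, SE 0.10, limma adjusted p = 0.000405). Wars2 went from 5.8, 6.12 and 6.16 to 9.18, 10.3 and 9.71 TPM (log2 0.61, SE 0.09, limma adjusted p = 0.000427), and Yars2 from 23 ± 1.58 to 28.4 ± 1.76 TPM (log2 0.29, limma adjusted p = 0.00845). The calls of Aars, Rars, Sars, Wars, Farsb, Kars, Qars, Sars2, Wars2 and Yars2 held in all 19 alternatives. Single libraries decided the rest. The adjusted p reached 0.101 for Cars (control replicate 2 or 3, or any BAY-876 replicate, left out), 0.0695 for Mars1 (control replicate 1, or BAY-876 replicate 1 or 3), 0.0607 for Tars (control replicate 1, or BAY-876 replicate 1 or 2) and 0.0557 for Yars (control replicate 1). Without control replicate 1, or without BAY-876 replicate 1, the higher cytosolic calls numbered 5.

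The 36 h and 32 h experiments share no library, so their calls can be set together. Aars, Sars and Yars were higher in both, which is 75% of the 4 cytosolic genes higher at 36 h and 37.5% of the 8 at 32 h. Farsb and Kars were lower in both, 100% of the 2 at 36 h and 66.7% of the 3 at 32 h. Mitochondrial calls shared 0 genes in either direction. The same overlap over all genes was not counted. Sars2, called at 32 h, stood at 132, 127 and 127 normalized counts with vehicle at 36 h and at 164, 150 and 176 with BAY-876, again without overlap, but was not called (log2 0.34, SE 0.12, limma adjusted p = 0.104).

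**Figure D2:**
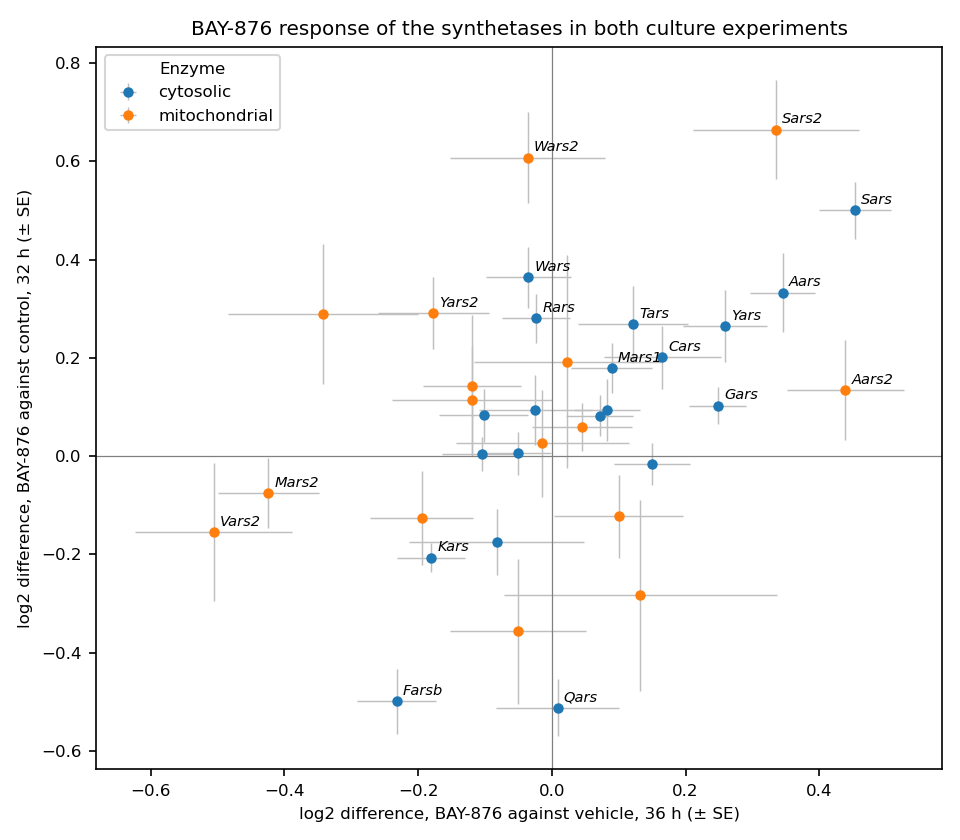
Log2 difference ± SE of each synthetase under BAY-876 at 36 h (horizontal axis) and at 32 h (vertical axis), with names on genes called in either. Sars lies at 0.45 and 0.50 at the upper right, Farsb at −0.23 and −0.50 at the lower left, and Wars2 at −0.04 and 0.61 above the centre.

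TNF alone raised 5 cytosolic genes, Farsa, Hars, Vars, Rars and Kars, and lowered Cars and Yars, and it raised 4 mitochondrial genes, Yars2, Mars2, Sars2 and Wars2, and lowered 0, where 19.4% of 12780 genes rose and 26.1% fell (45.6% in either direction). With 7 of 20 cytosolic and 4 of 16 mitochondrial genes called, the set was called no more often than all genes. The medians were 0.02 log2 for cytosolic and 0.10 for mitochondrial genes, against −0.06 for all genes. Over all genes 42.7% of the calls were higher, and 52.7% after median-ratio scaling.

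Yars2, the mitochondrial tyrosine enzyme, had the largest difference of the 36 genes under TNF, from 22.1, 24.8 and 22.1 TPM in control to 41.7, 40.6 and 47 TPM, far above the controls (log2 0.88, SE 0.07, limma adjusted p = 1.92e-06). Its cytosolic counterpart Yars went down, from 151, 167 and 158 to 145, 133 and 135 TPM (log2 −0.20, SE 0.07, limma adjusted p = 0.0433). That call was lost without control replicate 2 or 3, any BAY-876 replicate, or TNF replicate 2 or 3. It was also lost with no filter on low values and after median-ratio scaling, with adjusted p up to 0.159. Farsa went from 77.9, 75.4 and 76.6 to 112, 114 and 115 TPM, without overlap (log2 0.56, SE 0.03, limma adjusted p = 1.92e-07), while Farsb, the other subunit, stood at 61 ± 1.35 and 67.8 ± 5.93 TPM and was not called.

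Hars, the histidine enzyme, went from 50.5, 50.1 and 50.8 to 69.4, 68.1 and 76.4 TPM (log2 0.49, SE 0.05, limma adjusted p = 1.86e-05). Its mitochondrial neighbour Hars2, which overlaps it on the opposite strand, stood at 16.7 ± 1.07 and 16.4 ± 0.212 TPM and was not called. Vars rose from 350.5 ± 12.4 to 473 ± 21.4 TPM (log2 0.43, limma adjusted p = 7.5e-06), Rars from 133 ± 3.47 to 177 ± 8.35 TPM (log2 0.41, limma adjusted p = 4.23e-05) and Kars from 241 ± 5.78 to 311 ± 3.26 TPM (log2 0.37, limma adjusted p = 1.36e-06). Kars was thus higher under TNF and lower under BAY-876 than in the control cells that both comparisons share.

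Cars, the cysteine enzyme, went the other way, from 70.1, 66.6 and 63.5 to 54.6, 59.1 and 49.8 TPM with no overlap (log2 −0.29, SE 0.06, limma adjusted p = 0.00321). Mars2 rose from 7.29 ± 0.252 to 10.8 ± 0.224 TPM (log2 0.51, SE 0.07, limma adjusted p = 0.000125) and Sars2 from 6.48 ± 0.384 to 8.62 ± 0.502 TPM (log2 0.36, limma adjusted p = 0.0117). Wars2 rose by 0.26 log2 (limma adjusted p = 0.0418). This call was lost with no filter on low values, and without any control replicate, BAY-876 replicate 3, or TNF replicate 1 or 2, with adjusted p up to 0.173.

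The scaffold proteins of the complex, a list of 3, all rose under TNF. Eef1e1 went from 91.8, 80.2 and 91.2 to 176, 153 and 159 TPM (log2 0.88, SE 0.09, limma adjusted p = 9.14e-06) and Aimp2 from 63.5 ± 3.39 to 93.4 ± 4.22 TPM (log2 0.55, SE 0.05, limma adjusted p = 3.08e-06). Aimp1 rose by 0.22 log2 (limma adjusted p = 0.00332). Of the 8 enzymes of that complex, Rars and Kars were higher and the other 6 were not called. Among the 20 integrated stress response genes 4 rose and 11 fell under TNF, where 19.4% of all genes rose and 26.1% fell. Of the 20, those with the smallest p were lower, Ddit4 by a log2 difference of −0.89, Nupr1 of −0.93, Atf5 of −1.13 and Chac1 of −0.70.

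**Figure D3:**
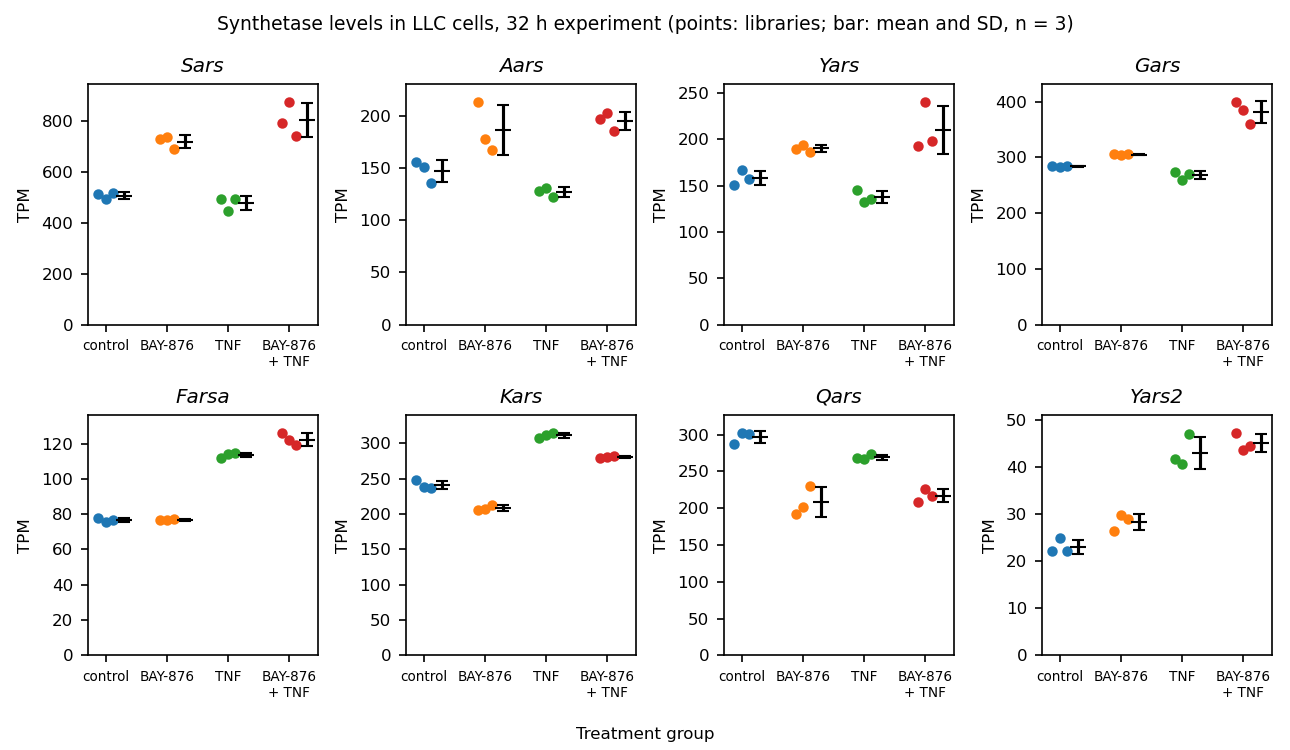
TPM of 8 synthetases in each library of the 32 h experiment, with mean and SD of the 3 libraries of a group, on axes that start at 0. Sars, Aars and Yars are high in both groups with BAY-876, Farsa and Yars2 in both groups with TNF (Yars2 at 43.1 and 45.1 TPM), Gars is highest with both agents (381 TPM), and Qars is low in both groups with BAY-876.

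The combination was compared first with TNF alone, which asks how TNF-treated cells differ with the inhibitor. Nearly the whole cytosolic set differed: 15 of 20 genes were higher and 4 lower, where 10.4% of 12780 genes were higher and 23.6% lower (34% in either direction). Of 16 mitochondrial genes 3 were higher and 0 lower. The median was 0.27 log2 for cytosolic genes, 0.08 for mitochondrial genes and −0.08 for all genes. Over all genes 30.5% of the calls were higher, and 47.6% after quantile normalization or 50.7% after median-ratio scaling. Dars, for aspartate, was the cytosolic gene not called, at 95.4 ± 4.03 TPM with TNF and 93.1 ± 0.993 TPM with both.

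Sars showed the largest difference, from 492, 447 and 494 TPM with TNF to 793, 873 and 739 TPM with both, 1.67 times higher without overlap (log2 0.74, SE 0.06, limma adjusted p = 4.42e-06). Aars went from 128, 131 and 122 to 197, 203 and 186 TPM (log2 0.62, SE 0.08, limma adjusted p = 0.000173). Yars went from 145, 133 and 135 to 193, 240 and 198 TPM (log2 0.60, SE 0.07, limma adjusted p = 0.000114). The groups were apart in all 3 genes. Cars went from 54.6, 59.1 and 49.8 to 87.5, 83.4 and 78.2 TPM (log2 0.60, SE 0.06, limma adjusted p = 4.63e-05), which put it above the control cells, where TNF alone had put it below. Tars (log2 0.57), Gars (0.50), Nars (0.45), Wars (0.39), Eprs (0.34), Iars (0.28), Rars (0.26) and Lars (0.25) were also higher, and these 12 higher calls held in all 19 alternatives.

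Mars1, Hars and Farsa were higher by 0.19, 0.16 and 0.11 log2. These calls were lost without TNF replicate 2 or the combination's replicate 2, Hars also without any control replicate, TNF replicate 1, or the combination's replicate 1 or 3, and Farsa also without TNF replicate 1 or 3 or the combination's replicate 1. Their adjusted p reached 0.0651, 0.139 and 0.103. Qars was lower, at 268, 267 and 273 TPM with TNF and 208, 227 and 216 TPM with both (log2 −0.31, SE 0.06, limma adjusted p = 0.00182), and its call held in all alternatives. Farsb, Kars and Vars were lower by log2 differences of −0.24, −0.15 and −0.12. The call of Farsb was lost without TNF replicate 1 or 2 or the combination's replicate 3, and that of Vars without control replicate 1, any BAY-876 replicate, TNF replicate 1 or 3, or the combination's replicate 2 or 3. After median-ratio scaling none of these 3 passed, with adjusted p up to 0.0679 for Farsb, 0.233 for Kars and 0.503 for Vars over all alternatives, so Qars was then the single lower gene. Without TNF replicate 1, or without the combination's replicate 3, the lower cytosolic genes numbered 2. Among mitochondrial genes Sars2 rose from 8.62 ± 0.502 to 13.3 ± 2.1 TPM (log2 0.56, limma adjusted p = 0.00141) and Wars2 from 7.43 ± 0.97 to 11 ± 0.75 TPM (log2 0.52, limma adjusted p = 0.0014). Iars2 was higher by 0.17 log2 (limma adjusted p = 0.0152), a call lost without TNF replicate 3 or the combination's replicate 1, with adjusted p up to 0.063.

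These 2 BAY-876 comparisons of the 32 h experiment share no library, but they come from the same fit and share its estimate of the spread. All 8 cytosolic genes higher with the inhibitor alone were also higher on top of TNF, 100% of the 8 and 53.3% of the 15. All 3 lower genes were also lower there, 100% of the 3 and 75% of the 4, and Sars2 and Wars2 were shared among the 3 mitochondrial genes of each. The same overlap over all genes was not counted. Of 13 cytosolic genes listed as known ATF4 targets, 4 were higher at 36 h, 7 with the inhibitor alone at 32 h, and 12 with TNF present, where Vars was lower. That list was compiled with earlier results of these data known. Among the 20 integrated stress response genes, 18, 15 and 19 were higher in the same comparisons, and 1, 0 and 0 were lower. Over all genes 7.34%, 11.5% and 10.4% were higher in these comparisons, and 7.1%, 25.8% and 23.6% lower. With TNF present, the smallest p of the 20 belonged to Ddit3 (log2 1.52), Atf4 (0.87), Trib3 (1.60) and Chac1 (1.43).

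Compared with BAY-876 alone, the combination had 13 of 20 cytosolic genes higher and 0 lower, where 19.3% of 12780 genes were higher and 24.8% lower (44.2% in either direction). Of the mitochondrial genes 2 were higher and 1 lower. The median was 0.29 log2 for cytosolic genes, 0.15 for mitochondrial genes and −0.05 for all genes. All 5 cytosolic genes that TNF raised alone, Farsa, Hars, Kars, Rars and Vars, were among the 13 (100% of the 5 and 38.5% of the 13). These comparisons share no library but share the fit and its estimate of the spread, and the same overlap over all genes was not counted. Farsa went from 76.5, 76.5 and 77.5 to 126, 122 and 119 TPM, far apart (log2 0.66, SE 0.03, limma adjusted p = 5.12e-08). Hars went from 51.4, 52 and 57.4 to 79.7, 80.3 and 78.9 TPM (log2 0.56, SE 0.05, limma adjusted p = 5.92e-06).

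The other 8 cytosolic genes had not been called higher under TNF alone. Lars, for leucine, went from 78, 80.1 and 73 to 115, 110 and 96.4 TPM, without overlap (log2 0.47, SE 0.07, limma adjusted p = 0.000145). Farsb was higher by 0.41 log2 (SE 0.07, limma adjusted p = 0.000403) and at 57.2 ± 3.73 TPM came near its control level. Nars (0.35), Iars (0.33), Gars (0.32), Tars (0.27), Eprs (0.25) and Sars (0.16) followed. Tars lost its call without BAY-876 replicate 3 (adjusted p = 0.0516), and Sars lost it without any 1 library other than TNF replicate 2 or the combination's replicate 3, with adjusted p up to 0.235. Mars2 (log2 0.61, limma adjusted p = 2.98e-05) and Yars2 (0.65, limma adjusted p = 2.2e-05) were the higher mitochondrial genes. Pars2 was lower, at 10.8, 9.14 and 9.05 TPM with BAY-876 and 4.31, 8.03 and 6.95 TPM with both (log2 −0.55, limma adjusted p = 0.0366). The call of Pars2 was lost without any BAY-876 replicate or the combination's replicate 1, with adjusted p up to 0.138.

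Whether the response to BAY-876 itself differed with TNF was tested as an interaction, the log2 response with TNF minus that without. The fit called 2 of 20 cytosolic genes, Gars and Lars, both higher, and 0 of 16 mitochondrial genes, where 0.736% of 12780 genes were higher and 0.822% lower (1.56% in either direction). Gars stood at 284 ± 1.11 TPM in control, 305 ± 1.19 with BAY-876, 268 ± 7.71 with TNF and 381 ± 20.2 TPM with both. Its response was thus 0.10 log2 without TNF and 0.50 log2 with it, an interaction of 0.40 (SE 0.05, limma adjusted p = 0.00433) that held in all 18 alternatives. Lars stood at 87.1 ± 3.22, 77 ± 3.65, 89.6 ± 4.91 and 107 ± 9.49 TPM in the same order. Its response ran from −0.18 log2 without TNF to 0.25 log2 with it (interaction 0.43, SE 0.09, limma adjusted p = 0.0497). Lars passed in 5 of 18 alternatives, with adjusted p between 0.0146 and 0.117, and lost its call without any 1 of the libraries but the combination's replicate 3.

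Signs over the whole set were uneven. The interaction was above 0 in 17 of 20 cytosolic genes (median 0.22) and in 7 of 16 mitochondrial genes (median −0.07), against a median of 0.00 for all genes. Cars (0.40, limma adjusted p = 0.0571), Eprs (0.26, limma adjusted p = 0.0573) and Nars (0.35, limma adjusted p = 0.0813) came next. Summed over the set, cytosolic synthetases reached 3337 ± 26.7 TPM in control, 3609 ± 57.8 with BAY-876, 3528 ± 68.9 with TNF and 4301 ± 191 TPM with both. All libraries with both agents, at 4081 to 4424 TPM, lay above all others, which ended at 3674 TPM. The mitochondrial sums were 346 ± 4.57, 350 ± 5.28, 369 ± 14.6 and 390.5 ± 10.9 TPM, and the cytosolic to mitochondrial ratio was 11 ± 0.609 with both against 9.63 ± 0.0811 in control.

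**Figure D4:**
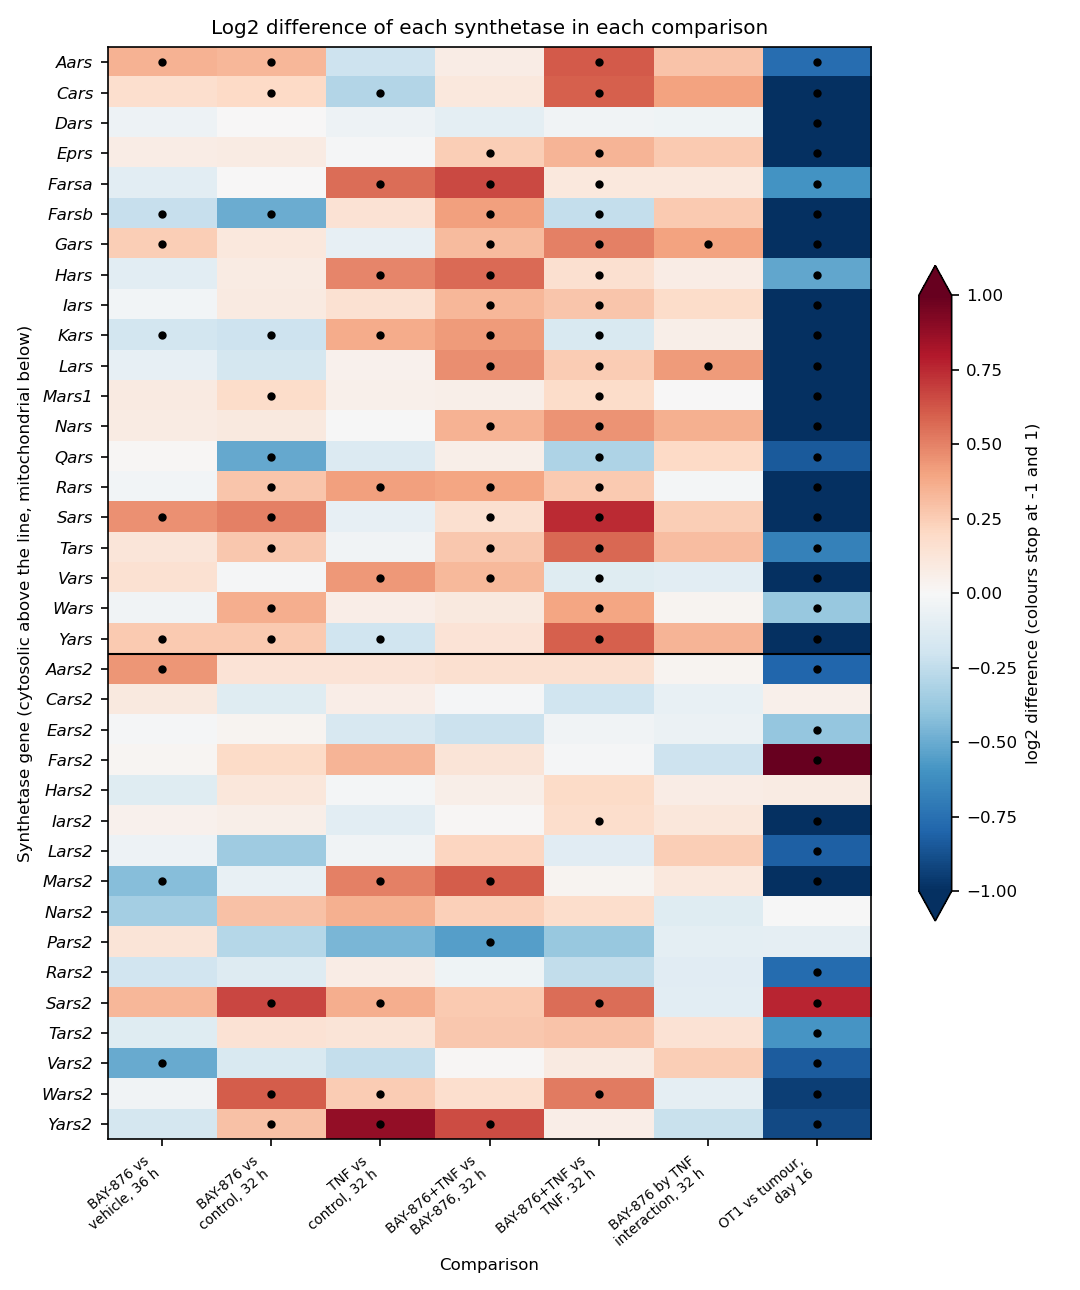
Log2 difference of the 36 synthetases in each of the 7 comparisons, red for higher and blue for lower in the group named first, with colours stopping at −1 and 1 and dots on genes called at a limma adjusted p under 0.05. The column of the combination against TNF holds 15 higher cytosolic genes, and the last column holds 20 lower ones.

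The authors' deposited table of BAY-876 against control called 13 cytosolic genes higher and 3 lower at an adjusted p under 0.05, with 16.3% of its genes higher and 15.3% lower. It called the 8 higher and 3 lower genes found here and 5 more, among them Gars (log2 0.20, authors' adjusted p = 2.24e-07) and Eprs (0.18, 4.12e-05). In the authors' deposited table of the combination against TNF, 15 were higher and 1 lower, where 14.4% and 13.4% of all genes passed. Qars was its lower gene (log2 −0.22, authors' adjusted p = 0.00391). Farsb, Kars and Vars, called lower here, were not called there (log2 −0.16, −0.06 and −0.03). For TNF against control the authors' deposited table had 8 higher and 2 lower cytosolic genes (19.7% and 17.4% of all genes). The lower genes were Cars and Aars, which was not called here, while Yars was not called there (authors' adjusted p = 0.0727). For the combination against BAY-876 it had 16 and 0 (19.1% and 17.3%), and Pars2, called lower here, was not called there (authors' adjusted p = 0.0782). No gene was called in opposite directions by an authors' deposited table and the fit used here.

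On day 16 all 20 cytosolic synthetases were lower in OT1 cells than in tumour cells, in a comparison in which 44.4% of 13511 genes were lower and 30.1% higher (74.5% in either direction). The ranges of OT1 and tumour libraries were apart in 19 of the 20, all with OT1 below, where 37.8% of all genes tested were apart with OT1 below and 25.3% with OT1 above (63.1% in all). The exception was Wars, which is also known as an interferon-induced gene. Of 10 listed interferon-induced genes 3 were higher and 4 lower in OT1 cells (median log2 −0.25), near the shares of all genes. A link of Wars to interferon was not tested. Differences of the cytosolic synthetases ran from log2 −0.38 in Wars to −1.57 in Iars, with a median of −1.08 against −0.21 for all genes. Median-ratio scaling moved the median of all genes from −0.21 to 0.05 and the share of higher calls from 40.4% to 52.9%. Under that scaling 19 of the 20 remained lower and Wars lost its call (adjusted p = 0.342).

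Iars, for isoleucine, stood at 129, 123, 128, 82.2 and 106 TPM in tumour replicates 1 to 5 and at 55.2, 37.1, 34, 34.3 and 28.8 TPM in OT1 replicates 1 to 5. The lowest tumour library lay above the highest OT1 library (2.97 times lower in OT1, log2 −1.57, SE 0.17, limma adjusted p = 6.14e-06). Eprs stood at 150, 126, 136, 112 and 116 TPM in tumour cells and at 53.1, 40.6, 45.8, 47.3 and 34.5 TPM in OT1 cells, again apart (log2 −1.52, SE 0.12, limma adjusted p = 4.14e-07). Rars (log2 −1.47) and Lars (−1.45) followed, and Gars was 2.53-fold lower. Of the 8 enzymes of the multisynthetase complex all were lower, with a median of log2 −1.30, and so were all 3 scaffold proteins, with a median of −1.12.

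Sars stood at 444, 392, 384, 255 and 302 TPM in tumour cells and at 203, 158, 158, 147 and 122 TPM in OT1 cells, without overlap (log2 −1.16, SE 0.17, limma adjusted p = 5.29e-05). By mean TPM it ranked 3 of 36 in either cell type, and 1 of 36 in LLC cells in culture, a table scaled separately. Qars fell least among the enzymes of the complex, from 382 ± 30.2 to 213 ± 19 TPM (log2 −0.84, SE 0.09, limma adjusted p = 2.94e-06). Farsa (log2 −0.60), Hars (−0.52) and Wars (−0.38) had the smallest differences of the cytosolic set. Wars stood at 49 to 69.3 TPM in tumour cells, median 65.1, and at 45 to 49.9 TPM in OT1 cells, median 48.6, so tumour replicate 4 alone lay within the OT1 range.

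Mitochondrial enzymes were split. In OT1 cells 10 of 16 were lower, 2 higher and 4 not called, where 44.4% of all genes were lower and 30.1% higher (74.5% in either direction). The set was thus called about as often as all genes. Its median was log2 −0.68, against −0.21 for all genes. Fars2, the mitochondrial phenylalanine enzyme, stood at 13.3, 11.9, 10.2, 10.1 and 11.1 TPM in tumour cells and at 25.7, 23.5, 30.4, 23.5 and 24.7 TPM in OT1 cells. Every OT1 library lay above every tumour library (2.16-fold, log2 1.11, SE 0.11, limma adjusted p = 2.3e-06). Sars2 stood at 10.1, 9.18, 8.59, 9.03 and 9.66 TPM and at 18.8, 16.3, 14.4, 19 and 14.5 TPM, also apart (log2 0.76, SE 0.11, limma adjusted p = 5.49e-05). The cytosolic genes of the same amino acids were lower, so Sars to Sars2 went from 38.2 ± 7.84 in tumour cells to 9.52 ± 1.43 in OT1 cells. Fars2 is overlapped by 4 genes on the opposite strand, and whether counting used strand was not given in the sources used here.

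Mars2 was the lowest relative to tumour cells, at 9.1, 10.7, 10.4, 6.66 and 10.2 TPM there and 3.31, 2.99, 2.94, 2.97 and 1.93 TPM in OT1 cells, with a wide gap (log2 −1.44, SE 0.15, limma adjusted p = 4.74e-06). Iars2 fell from 58.3 ± 4.29 to 24.2 ± 3.21 TPM (log2 −1.24, limma adjusted p = 5.45e-07). Wars2 (−0.94), Yars2 (−0.91), Vars2 (−0.83), Aars2 (−0.79), Rars2 (−0.77) and Tars2 (−0.59) were also lower, and these 8 calls held in all 17 alternatives. Cars2, Hars2, Nars2 and Pars2 had differences between −0.09 and 0.08 and were not called. Ears2 (log2 −0.39, limma adjusted p = 0.0149) and Lars2 (−0.81, limma adjusted p = 0.0187) lost their calls after median-ratio scaling, with adjusted p up to 0.276 for Ears2. Under that scaling 4 mitochondrial genes were higher. Lars2 was uneven among tumour libraries, at 39.6, 33.9, 49.4, 109 and 73.8 TPM, and tumour replicate 4, the highest, also had the most mitochondrial genome transcripts of its group, 5.17% against 3.18% to 3.97% in the others, and the highest erythroid marker sum, 899 TPM against 10.1 to 181 TPM. OT1 libraries had 4.21% to 6.93% mitochondrial genome transcripts and erythroid sums of 65 to 2781 TPM, with Lars2 at 31.6 ± 5.5 TPM. The part of these transcripts in the Lars2 result was not tested.

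**Figure D5:**
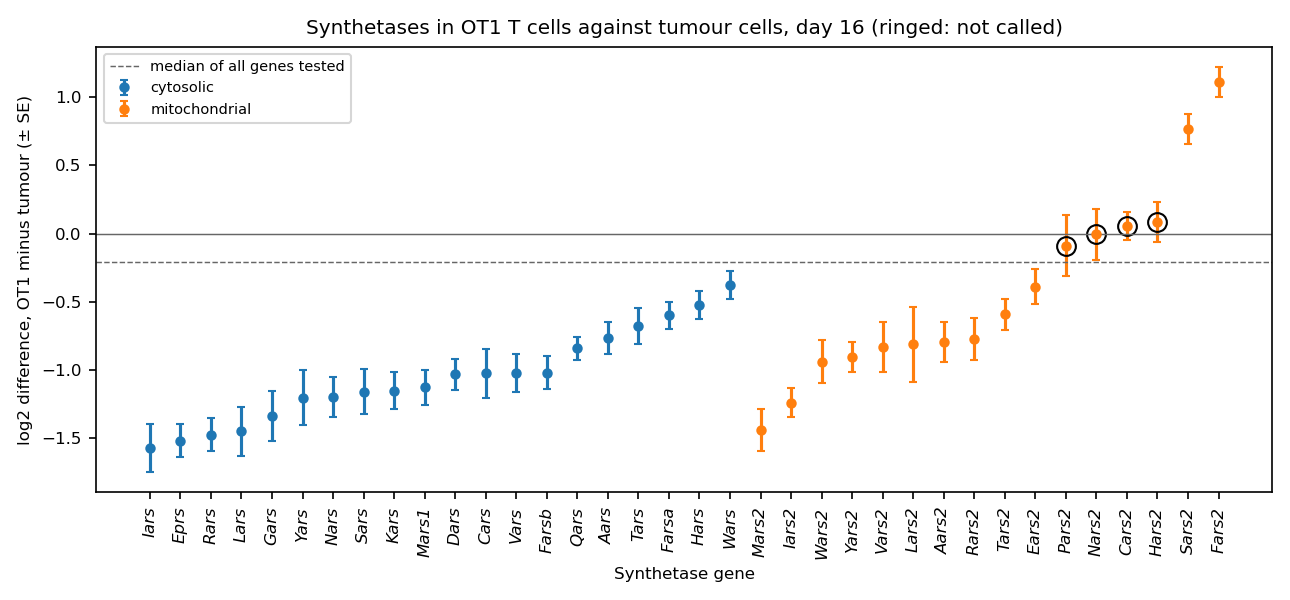
Log2 difference ± SE of each synthetase in OT1 cells against tumour cells, 5 libraries each, cytosolic genes on the left and mitochondrial genes on the right, each in order of size. All cytosolic points lie below 0 and below the dashed median of all genes (−0.21), while Sars2 and Fars2 stand above 0 at 0.76 and 1.11, and rings mark the 4 genes not called.

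Summed cytosolic synthetases reached 3471, 3275, 3526, 2598 and 3038 TPM in tumour replicates 1 to 5 and 1795, 1416, 1533, 1557 and 1203 TPM in OT1 replicates 1 to 5. Even the highest OT1 library lay below the lowest tumour library. The mitochondrial sums were 376.5 ± 30.4 and 257 ± 11.7 TPM, and the ratio of the sums was 8.53 ± 1.5 in tumour cells and 5.83 ± 0.611 in OT1 cells. All synthetases together took 0.356 ± 0.0361% of tumour TPM and 0.176 ± 0.0226% of OT1 TPM. In such bulk libraries fewer cells of a type and less RNA per cell cannot be told apart. Myeloid markers were higher in OT1 libraries for 16 of 16 genes, and OT1 replicate 5, with the highest myeloid sum of 16778 TPM, had the lowest cytosolic synthetase sum. Tumour markers in OT1 libraries summed to 1169 to 1604 TPM, against 5031 to 5564 TPM in tumour libraries. Such a sum is weighted to its most abundant genes and does not measure the share of tumour RNA. Gene by gene, the 8 markers had a median log2 difference of −3.72 in OT1 against tumour libraries, from −4.11 to −1.44. Without OT1 replicates 2, 4 and 5, those with the most myeloid transcripts and chosen after the data were seen, 20 cytosolic genes were still lower, and 2 mitochondrial genes were higher and 8 lower, Ears2 (adjusted p = 0.166) and Lars2 (adjusted p = 0.0717) no longer passing.

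Other genes of tRNA charging were counted in the same way. Of 14 accessory genes, 0 were higher and 1 lower under BAY-876 at 36 h, near the 7.34% and 7.1% of all genes. At 32 h 4 were higher and 1 lower, where 11.5% and 25.8% of all genes were. In OT1 against tumour cells 3 were higher and 9 lower, where 30.1% and 44.4% of all genes were. Gatc, a subunit of the mitochondrial amidotransferase that makes glutaminyl-tRNA, was lower under BAY-876 at 36 h (log2 −0.35, limma adjusted p = 0.0259) and at 32 h (log2 −0.34, limma adjusted p = 0.00798), and higher under TNF (log2 0.32, limma adjusted p = 0.00804). Xpot, the export receptor for tRNA, rose under BAY-876 at 32 h from 205 ± 7.54 to 250 ± 12.6 TPM (log2 0.28, limma adjusted p = 0.00629) and was lower in OT1 than in tumour cells, at 49.6 ± 14 against 157 ± 21.6 TPM (log2 −1.67, limma adjusted p = 3.77e-06). The 9 mitochondrial translation factors had 0 higher and 3 lower under BAY-876 at 32 h, near the 11.5% and 25.8% of all genes. Tufm and Gfm1, elongation factors of mitochondrial ribosomes, were lower by log2 differences of −0.33 and −0.15, and Mtif2 by −0.61. Under TNF alone 3 of the 9 were higher and 0 lower, where 19.4% and 26.1% of all genes were. Tufm and Gfm1 were among the higher, by 0.57 and 0.33 log2.

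By position in GENCODE M21 on GRCm38, Sars lies on chromosome 3 at 108424865 to 108445209, Aars on chromosome 8 at 111033144 to 111057664, Gars on chromosome 6 at 55038007 to 55079500 and Qars on chromosome 9 at 108507706 to 108515941. Farsa lies on chromosome 8 at 84856989 to 84869257, Yars2 on chromosome 16 at 16302965 to 16309640, Fars2 on chromosome 13 at 36117412 to 36726280 and Sars2 on chromosome 7 at 28741992 to 28753871. All are protein-coding genes, and RefSeq places some starts elsewhere than GENCODE does. Aars overlaps Exosc6 on its own strand, Farsb overlaps Sgpp2, Wars overlaps Wdr25, Yars overlaps C77080 and Iars2 overlaps Rab3gap2 on the opposite strand, so reads of these genes may be shared.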

How the data were processed

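Total RNA came from Trizol extraction, and a SMARTER mRNA kit gave the libraries, per the labels' protocols. STAR 2.6.1d, Salmon 0.13.1 and 0.14.1, DESeq2 1.34.0 and mm10 are named without roles in the submitters' processing notes. For 36 h the authors deposited a normalized count signal per gene, whose low values are not whole multiples of a read, so no count test was run. For 32 h and day 16 the authors deposited TPM with a total of 1000000 per library, and depth is therefore unknown. The authors' deposited comparisons list log2 fold changes and adjusted p-values. Of the 32 h columns, 24 matched no sample and stayed unused. A treatment label naming another compound number sits on 2 libraries of BAY-876 with TNF, and their titles decided the group.

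The value tested was log2(value + 1) of genes reaching 10 normalized counts or 1 TPM in at least 3 libraries (5 on day 16). Fits used limma 3.58.1 in R 4.3.3 with an intensity trend in the variance and Benjamini-Hochberg adjustment over all genes of a table. All 12 libraries of 32 h shared a fit. The scripts were tested on simulated data. Every member may be named, and of each other list the 4 genes with the smallest p. Members, lists and the promoter motif were chosen with earlier results of these data known. Alternatives comprised a different pseudocount (0.1 TPM, 10 counts), dropping the filter or requiring a mean of 5 TPM or 100 counts, quantile normalization, median-ratio scaling, omitting each library, a replicate block, and fitting the compared groups alone.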

Additional observations from a re-analysis of the deposited data

Results flagged for a closer look

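Among 72 groups of 5 libraries tested for a value far from the rest, 3 held such a value, where chance flags about 1 in 20. Mars1 stood at 85 TPM in tumour replicate 4 and at 100.4 to 104 TPM in the other tumour libraries. Hars2 stood at 26.2 TPM in OT1 replicate 5 and at 15.2 to 18 TPM in the other OT1 libraries. Mars2 stood at 1.93 TPM in OT1 replicate 5 and at 2.94 to 3.31 TPM in the others. OT1 replicate 5 also had the highest myeloid marker sum, and the part of that in these values was not tested.

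The response to BAY-876 differed with TNF by 0.40 log2 for Gars and by 0.43 log2 for Lars, by the interaction test. For Hars and Yars2 the BAY-876 libraries lay below the vehicle libraries without overlap at 36 h, by −6.70% and −11.8% of the mean, and above the control libraries without overlap at 32 h. Hars was called in neither comparison and Yars2 at 32 h only, and of 12086 genes tested in both experiments 303 (2.51%) showed the same opposite order. The difference between the experiments, which used different protocols and units, was not tested.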

How the results depend on the processing

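No called synthetase changed sign under any alternative. With no filter, lower cytosolic calls went from 2 to 1 at 36 h and from 2 to 1 under TNF, lower mitochondrial calls of the combination against BAY-876 from 1 to 0, and interaction calls from 2 to 1, as they did with a pseudocount of 0.1 TPM. Interaction calls were 4 with a mean of at least 5 TPM and 4 after median-ratio scaling. Quantile normalization gave 0 lower cytosolic genes at 36 h, 5 higher mitochondrial genes for BAY-876 at 32 h, 6 lower cytosolic and 1 lower mitochondrial gene for TNF, 1 lower cytosolic, 5 higher and 0 lower mitochondrial genes for the combination against BAY-876, and 2 lower cytosolic genes against TNF. Median-ratio scaling gave 14 higher cytosolic genes for BAY-876 at 32 h, 1 lower for TNF, 0 lower mitochondrial genes for the combination against BAY-876, 1 lower cytosolic gene against TNF and 4 higher mitochondrial genes on day 16. Higher calls over all genes also went from 1473 to 2354 for BAY-876 at 32 h and from 4061 to 5236 on day 16. Fits of only the groups compared gave 4 lower cytosolic genes for TNF, 0 lower mitochondrial genes for the combination against BAY-876 and 2 lower cytosolic genes against TNF. The causes were not tested.

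With each library left out in turn, counts ran from 0 to 2 (cytosolic lower), 0 to 1 (mitochondrial higher) and 1 to 2 (mitochondrial lower) at 36 h. For BAY-876 at 32 h they ran from 5 to 9 (cytosolic higher) and 0 to 1 (mitochondrial lower), and for TNF from 1 to 3 (cytosolic lower) and 0 to 2 (mitochondrial lower). For the combination they ran from 0 to 1 (mitochondrial lower, against BAY-876), 2 to 4 (cytosolic lower, against TNF) and 0 to 1 (mitochondrial lower, against TNF), and for the interaction from 1 to 4. Lower mitochondrial calls appeared under BAY-876 (1 without control replicate 3 or the combination's replicate 3), under TNF (2 without TNF replicate 1, and 1 without control replicate 1 or the combination's replicate 1) and for the combination against TNF (1 without BAY-876 replicate 2 or the combination's replicate 2). Interaction calls were 4 without the combination's replicate 3. On day 16 the counts stayed at 20, 2 and 10.

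Replicate numbers recur across groups. Same-numbered libraries deviated together with correlations between −0.0742 and −0.0194 (36 h), −0.192 and 0.12 (32 h), and 0.0453 and 0.111 (day 16). Other pairs across groups ran from −0.0141 to 0.0582, −0.188 to 0.22 and −0.174 to 0.113 in the same order. Whether same-numbered libraries share a culture or mouse cannot be told from such weak correlations. With the replicate number as a block, lower cytosolic genes were 0 at 36 h and 4 under TNF, lower mitochondrial genes were 0 for the combination against BAY-876 and 2 against TNF, and the other counts stayed within 1.5 times.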
